A study of Mus musculus with 12 samples.

Results

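The 10 genes described here license DNA for replication, and they were taken by symbol from a table of 30154 mouse genes. They are the 6 subunits of the MCM helicase (Mcm2, Mcm3, Mcm4, Mcm5, Mcm6 and Mcm7), the helicase loaders Cdc6 and Cdt1, the Cdt1 inhibitor geminin (Gmnn), and Mcm10, which acts after loading when the helicase is switched on. RNA was sequenced in bulk from muscle stem cells of C57BL/6J mice aged 2 to 3 months, sorted by flow cytometry from the quadriceps, gastrocnemius and tibialis anterior of the hind limb. The 6 groups are wild type and Sestrin1,2 knockout, each before injury (day 0) and at 7 and 21 days after injury, with 2 libraries per group and 12 in all, so each group value below has n = 2. The labels do not name the injury, the sorting gate, how the knockout was made, or whether the 2 libraries of a group came from separate mice, so the p-values measure the spread between these libraries, which may be technical.

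Licensing is the step by which a cell marks each replication origin for use in the coming S phase. The origin recognition complex and Cdc6 sit on the DNA, Cdt1 brings the ring of Mcm2 to Mcm7, and the ring is loaded as an inactive double hexamer; geminin then binds Cdt1 and stops further loading until mitosis is over. Quiescent cells generally keep little of this machinery, and muscle stem cells are quiescent in resting muscle and divide after injury. Transcription of most of these genes is known to be driven by the E2F factors at the entry into S phase.

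The targeted genes were examined first. Sesn1 was at 31.4 and 30.6 TPM in wild type and at 20.9 and 21.1 TPM in knockout at day 0, which was not called (log2 fold change -0.60, edgeR adjusted p = 0.144). At day 7 it was at 45.3 and 37.1 TPM in wild type and at 13.4 and 10.5 TPM in knockout (-1.58, edgeR adjusted p = 0.0301). Much Sesn1 RNA thus remained in the knockout libraries, and the labels do not say which part of either gene was deleted. Sesn2 was at 27.6 and 30.7 TPM in wild type and at 2.10 and 2.65 TPM in knockout at day 0, and at 19.1 and 20.5 against 0.984 and 0.791 TPM at day 7 (TPM is a level scaled for transcript length and library depth). At day 21 it was at 3.37 and 34.1 TPM in the libraries labelled wild type and at 3.87 and 45.7 TPM in those labelled knockout. Sesn1 at day 21 was at 18.5 and 39.9 TPM in the libraries labelled wild type and at 19.3 and 34.9 TPM in those labelled knockout, so for both genes the first replicate of each genotype was low and the second high. Replicate 1 labelled wild type and replicate 2 labelled knockout thus went against their labels at day 21, and the calls of members at day 21 are given with and without these libraries. Libraries held 28396780 to 38950514 estimated counts, and counts fell on 17292 to 18142 genes. The muscle stem cell marker Pax7 was present in each library at 3.14 to 19.2 TPM. The libraries also held transcripts known from other cells, among them the fibroblast gene Dcn at 2388 to 8071 TPM and the myeloid gene Lyz2 at 320 to 3508 TPM.

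The promoters of the members are shown first because the genes rose together after injury. RefSeq start sites on GRCm38.p6 were available for 8 of the 10 members, with windows from 250 bases before to 50 bases after the start. The windows were searched on both strands for 4 words of the E2F recognition sequence, TTTCCCGC, TTTCGCGC, TTTGCCGC and TTTGGCGC. At least 1 of these words was found in 6 of the 8 members (Mcm3, Mcm5, Mcm6, Mcm7, Cdc6 and Cdt1), while 2.26% of 32851 windows of this length over all genes held one. A member was counted if any of its windows held a word, whereas the share over all genes is per window. Mcm7 had 2 windows, and only the first held an E2F word. The word CCAAT, the core of the NF-Y recognition sequence, was found in 6 of the 8 members and in 37.41% of all windows. A match is a description of the letters and not a measured binding site. The stretches that hold the E2F words follow, 5′ to 3′ on the strand of the gene, with the words in capitals. They lie at chr1:20820263-20820322 (Mcm3, minus strand), chr8:75109332-75109391 (Mcm5, plus), chr1:128359739-128359821 (Mcm6, minus), chr5:138171854-138172054 (Mcm7, minus), chr11:98907987-98908046 (Cdc6, plus) and chr8:122568005-122568064 (Cdt1, plus). Words on opposite strands overlap in Mcm5 and in Mcm6, so that their capitals form a single run.
Mcm3: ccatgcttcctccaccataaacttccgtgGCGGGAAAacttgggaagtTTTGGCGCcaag
Mcm5: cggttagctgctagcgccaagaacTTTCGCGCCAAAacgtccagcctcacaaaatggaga
Mcm6: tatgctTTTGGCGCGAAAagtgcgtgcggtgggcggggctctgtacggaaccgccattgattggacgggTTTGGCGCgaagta
Mcm7: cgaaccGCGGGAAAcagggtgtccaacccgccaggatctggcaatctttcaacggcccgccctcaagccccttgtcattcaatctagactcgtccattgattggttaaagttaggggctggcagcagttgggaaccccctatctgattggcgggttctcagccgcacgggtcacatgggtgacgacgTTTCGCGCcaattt
Cdc6: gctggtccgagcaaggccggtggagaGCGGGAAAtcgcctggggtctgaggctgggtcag
Cdt1: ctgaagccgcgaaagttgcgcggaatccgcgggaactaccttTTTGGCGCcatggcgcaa

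Mcm10 had no E2F word of these 4 in its window, nor did Mcm2. The Mcm10 window ends in TTTGGCG, which is TTTGGCGC without its last letter. The next base lies outside the window and was not searched, so a word across this edge could not be found. The whole Mcm10 window is printed because this gene had the largest difference between the genotypes at day 0. It lies at chr2:5012742-5013041 on the minus strand of GRCm38.p6, and its 3 CCAAT words are in capitals.
Mcm10: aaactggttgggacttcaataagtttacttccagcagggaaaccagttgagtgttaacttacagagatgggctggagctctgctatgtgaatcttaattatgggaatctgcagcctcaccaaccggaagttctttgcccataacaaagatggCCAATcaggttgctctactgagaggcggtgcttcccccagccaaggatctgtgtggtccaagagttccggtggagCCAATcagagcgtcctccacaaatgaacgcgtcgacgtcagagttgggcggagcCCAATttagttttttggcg

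Before injury the licensing transcripts were low but not uniform. Mcm7 was the most abundant subunit in wild type, at 33.4 and 33.2 TPM, followed by Mcm4 at 15.8 and 16.3 TPM and Mcm6 at 15.4 TPM in both libraries. The libraries of Mcm4 lay just above those of Mcm6. Mcm2 was at 7.67 and 6.81 TPM and Mcm3 at 5.89 and 6.07 TPM, and Mcm5 was the lowest subunit at 1.94 and 1.28 TPM. Among the other members, Cdt1 was at 4.97 and 6.54 TPM, Gmnn at 4.60 and 4.15 TPM and Cdc6 at 4.06 and 3.55 TPM, with no overlap among these 3, while Cdt1 overlapped Mcm3. Mcm10 was the lowest of all 10, at 0.654 and 0.954 TPM. Gmnn and Cdc6 lie on chromosomes 13 (24751845 to 24761923) and 11 (98907801 to 98923940), and Mcm10 on chromosome 2 (4989714 to 5012791), all protein-coding genes of GRCm38.

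**Figure D1:**
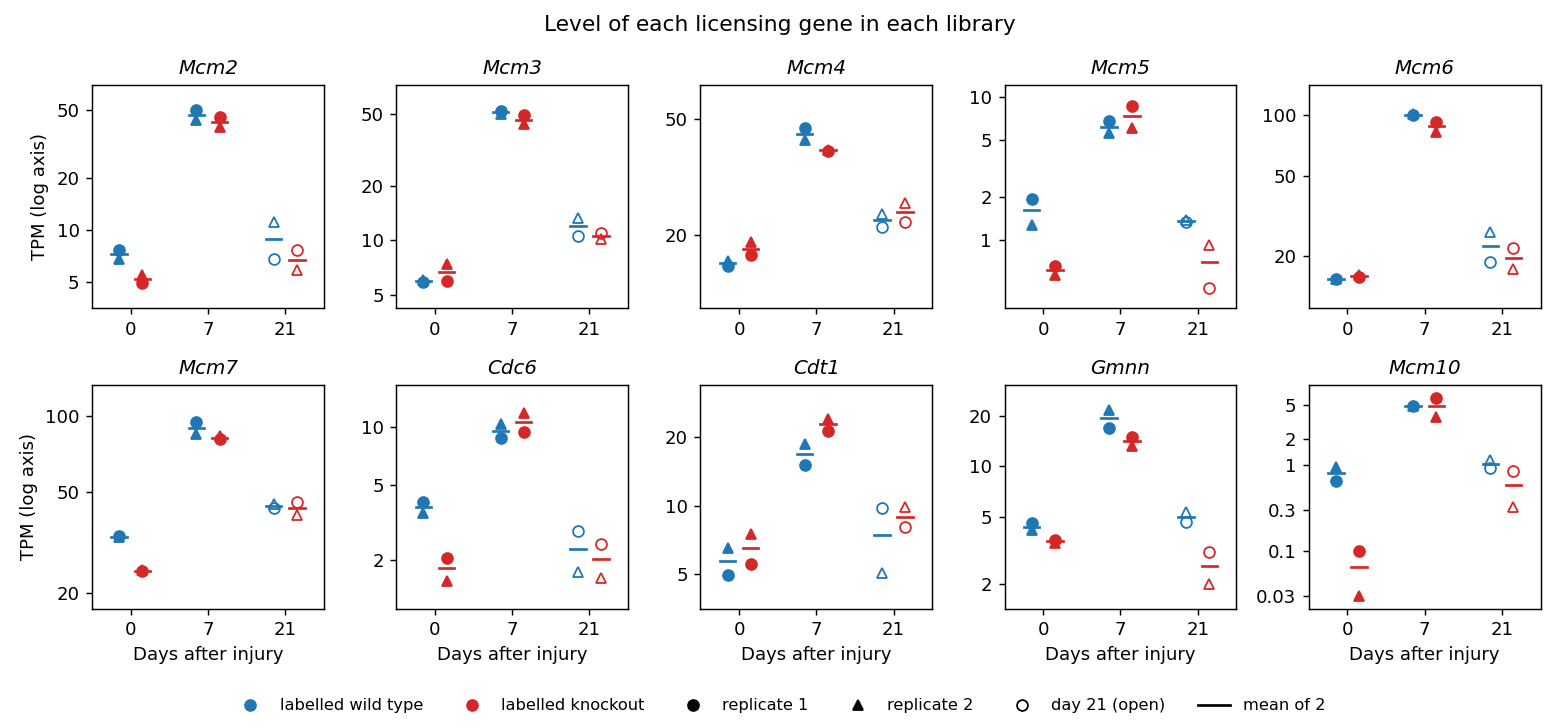
Level of each of the 10 licensing genes in each of the 12 libraries, in TPM on a log axis, by days after injury; circles are replicate 1, triangles replicate 2, short lines the mean of 2, and day 21 libraries are open because Sesn2 goes against the label of 2 of them. Every member is highest at day 7 in both genotypes, and Mcm10, Mcm5 and Cdc6 are lower in knockout than in wild type at day 0.

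Sestrin1,2 knockout was compared with wild type in uninjured muscle. Mcm10, Mcm5 and Cdc6 were called lower in knockout, and none of the 10 members was called higher. Over all 15890 genes tested, 27.4% were called at an adjusted p under 0.05 with 12.6% lower and 14.8% higher. A share of 3 in 10 is close to the share of all genes called in either direction and above the share called lower. The median log2 fold change of the 10 members was -0.38, and that of all genes was 0.0022. Library values of the groups in CPM (counts scaled to library size) did not overlap for 7 of the 10 members, all lower in knockout. The same held for 75.1% of all genes in either direction and for 37.1% lower in knockout. In TPM, Mcm2, Mcm5, Mcm7, Cdc6, Gmnn and Mcm10 lay lower in knockout without overlap. Mcm4 and Mcm6 lay higher without overlap, and Mcm3 and Cdt1 overlapped. The share of all genes without overlap in TPM is not given, so the TPM values are a description only.

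Mcm10, which recruits DNA polymerase alpha to the activated helicase, showed the largest difference. It was at 0.101 and 0.0298 TPM in knockout, from 7 and 2 counts, and both wild-type libraries had 61 counts. The groups did not overlap. The ratio of wild type to knockout in scaled counts was 11.6, with a 95% interval from 5.93 to 26.1 that covers counting error only, and the log2 fold change was -3.53 (SE 0.536, edgeR adjusted p = 0.00161). The log2 fold change was -4.50 without knockout replicate 1 and -3.01 without replicate 2, and the call held in both fits. On log2(TPM + 1), a scale that understates the change of low genes, it was -0.76 with a limma adjusted p of 0.0508, and Mcm5 was at -0.68 with 0.0534.

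Mcm5, the subunit that forms the gate of the ring together with Mcm2, was at 0.657 and 0.566 TPM in knockout, and both values lay below the wild-type libraries. Its ratio of wild type to knockout was 2.65 (95% counting interval 2.09 to 3.37), and the log2 fold change was -1.43 (SE 0.323, edgeR adjusted p = 0.00975). Cdc6, the ATPase that receives the helicase at the origin, was at 2.06 and 1.56 TPM in knockout, also below both wild-type libraries, with a log2 fold change of -1.06 (SE 0.232, edgeR adjusted p = 0.00829). These calls depended on single libraries. Without wild-type replicate 1, 1 of the 10 members was called, with edgeR adjusted p = 0.0793 for Mcm5 and 0.0575 for Cdc6. Without knockout replicate 2 the count was also 1, with 0.0794 for Mcm5 and 0.053 for Cdc6, and without knockout replicate 1 Cdc6 had an adjusted p of 0.0592. 

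The other members did not pass the test at day 0. Mcm2 was at 4.91 and 5.45 TPM in knockout, below both wild-type libraries, with a log2 fold change of -0.54 (SE 0.207, edgeR adjusted p = 0.0792). Mcm7 was at 24.3 and 24.6 TPM in knockout, again below both wild-type libraries. Its fold change in counts was -0.22 (SE 0.104, edgeR adjusted p = 0.139), whereas on log2(TPM + 1) it was -0.43 with a limma adjusted p of 0.0122. The ratio of Mcm7 counts to TPM, which follows the length of the transcripts the reads were assigned to, differed between the genotypes at this day. Its centred log2 values were -0.18 and -0.12 in the wild-type libraries, while the knockout libraries had 0.09 and 0.18. When the day 0 libraries were fitted alone, both genes were called (edgeR adjusted p = 0.00565 for Mcm2 and 0.0301 for Mcm7) and the count was 5 of 10, where 49.5% of all genes were called in that fit.

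Mcm3, Mcm4 and Mcm6 had fold changes of -0.07, 0.11 and -0.01 on the log2 scale with SE of 0.116, 0.0973 and 0.14. Their knockout levels were 5.93 and 7.43 TPM, 17.1 and 18.9 TPM, and 15.7 and 16.1 TPM, and both Mcm4 and Mcm6 values lay above the wild-type libraries. Cdt1 was at 5.56 and 7.48 TPM in knockout, overlapping wild type (log2 fold change 0.12, SE 0.312). Gmnn was at 3.66 and 3.49 TPM, below both wild-type libraries, with a log2 fold change of -0.57 (SE 0.324, edgeR adjusted p = 0.222).

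The markers of other cells also differed between the genotypes at day 0. Of the skin epithelium list, 5 of the 5 genes tested were lower in knockout, and their summed level was 170 and 179 TPM in wild type and 2.37 and 2.70 TPM in knockout, where Krt5, Krt14 and Krt15 were listed at 0. Of the red blood cell list, 5 of 5 were lower, with sums of 3121 and 3128 TPM against 782 and 742 TPM. Of the muscle stem cell list, 6 of 10 were lower and none was higher, with sums of 979 and 951 TPM against 737 and 715 TPM. The macrophage list summed to 2036 and 2053 TPM in wild type and to 3520 and 3413 TPM in knockout, nearly all of it Lyz2. The fibro-adipogenic list summed to 6171 and 5974 TPM in wild type and to 4858 and 4759 TPM in knockout. The differentiating muscle list summed to 160 and 174 TPM in wild type and to 90.3 and 92.0 TPM in knockout. The endothelial list was higher in knockout, at 119 and 126 TPM against 92.7 and 84.1 TPM in wild type. The neutrophil list summed to 0.593 and 1.39 TPM in wild type and to 0.039 and 0.0155 TPM in knockout. The T, B or NK cell list summed to 1.26 and 1.05 TPM in wild type and to 0.809 and 0.793 TPM in knockout. The part of these cells in the result was not tested. In bulk RNA, fewer cells that express a gene and less RNA of it per cell cannot be told apart.

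Injury was followed by a rise of the whole licensing set. At day 7, all 10 members were higher than at day 0 in wild type and all 10 in knockout. In wild type 25.8% of all genes were called higher and 47% were called in either direction, and in knockout 24.7% and 46.9%. The median log2 fold change of the members was 1.75 in wild type and 2.52 in knockout, and that of all genes was 0.06 and 0.03. The knockout and wild-type comparisons use different libraries.

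Among the helicase subunits Mcm3 rose most in wild type, to 52.0 and 50.5 TPM (log2 fold change 2.87, SE 0.119, edgeR adjusted p = 3.28e-07). In knockout it reached 49.5 and 44.2 TPM (2.83, SE 0.12). Mcm2 reached 50.1 and 44.0 TPM in wild type and 45.4 and 39.9 TPM in knockout, with log2 fold changes of 2.47 and 2.91. Mcm6 reached 100.5 and 101.2 TPM in wild type and 93.2 and 82.9 TPM in knockout, with 2.46 and 2.33, and was now the most abundant subunit in wild type. For these 3 genes the day 7 libraries lay far above all day 0 libraries.

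Mcm4 and Mcm7, which were already the higher subunits before injury together with Mcm6, rose least among the subunits in knockout and in wild type. Mcm4 reached 46.5 and 42.4 TPM in wild type and 38.9 and 39.2 TPM in knockout, with log2 fold changes of 1.24 and 0.99. Mcm7 reached 94.4 and 85.1 TPM in wild type and 80.8 and 83.3 TPM in knockout, with 1.43 and 1.59. Mcm5 reached 6.75 and 5.57 TPM in wild type and 8.68 and 6.05 TPM in knockout, with 1.71 and 3.45, and it remained the lowest subunit at every day.

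Of the loaders, Cdc6 reached 8.81 and 10.4 TPM in wild type and 9.43 and 11.9 TPM in knockout, with log2 fold changes of 1.45 and 2.71. Cdt1 reached 15.1 and 18.7 TPM in wild type and 21.3 and 24.0 TPM in knockout, with 1.32 (SE 0.311, edgeR adjusted p = 0.00601) and 1.67. The wild-type call of Cdt1 was lost without day 0 wild-type replicate 1, at an edgeR adjusted p of 0.0624. Gmnn, the inhibitor, reached 17.0 and 21.8 TPM in wild type and 15.1 and 13.2 TPM in knockout, with 1.80 and 2.05. Mcm10 reached 4.89 and 4.84 TPM in wild type and 6.12 and 3.63 TPM in knockout, with 2.57 and 5.92, the latter resting on the 9 counts of the day 0 knockout libraries.

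**Figure D2:**
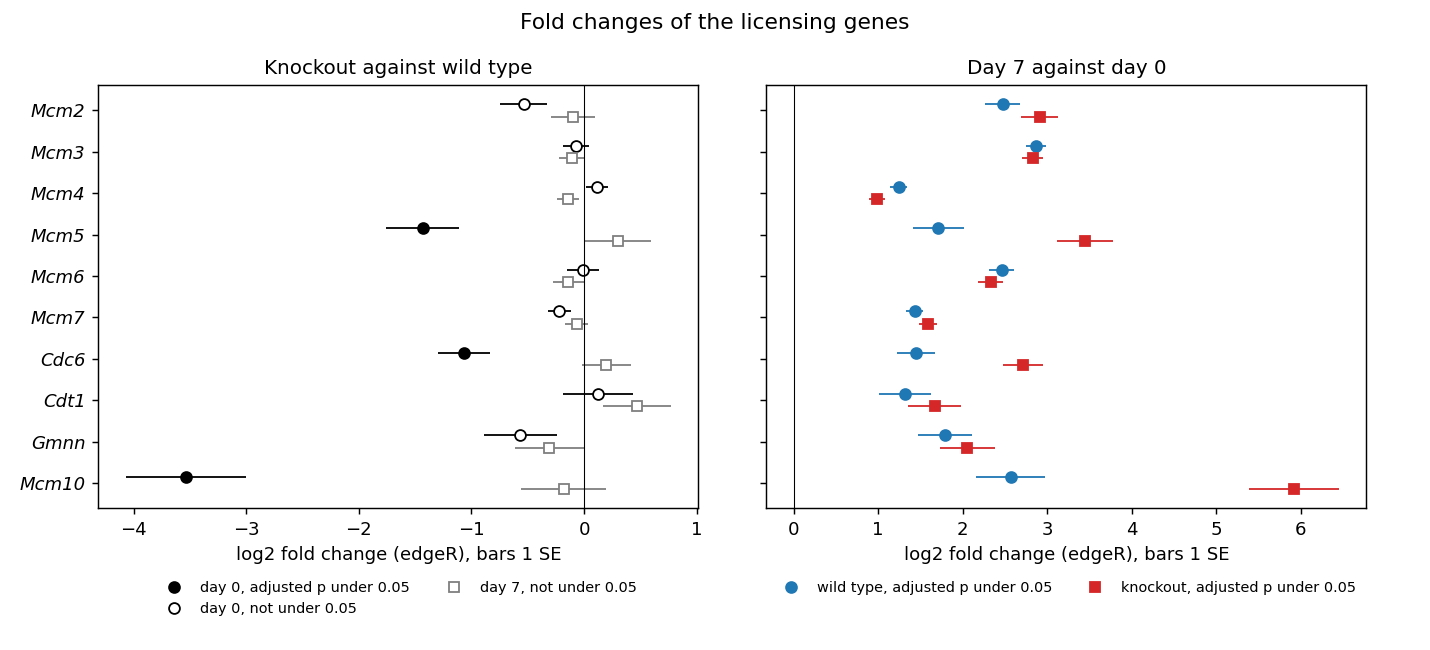
Log2 fold changes of the 10 licensing genes from edgeR, with bars of 1 SE; the left panel compares knockout with wild type at day 0 (circles, filled where the adjusted p is under 0.05) and day 7 (squares), and the right panel compares day 7 with day 0 in wild type (circles) and knockout (squares). Mcm10, Mcm5 and Cdc6 stand to the left of the other members at day 0, no member is called at day 7, and the rises of the same 3 genes are larger in knockout.

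At day 7 itself no member differed between the genotypes past the threshold. None of the 10 was called by edgeR or by DESeq2, where 1.76% of all genes were called by edgeR, and none had an unadjusted p under 0.05. The log2 fold changes ran from -0.31 for Gmnn (SE 0.304) to 0.47 for Cdt1 (SE 0.301). The median over the members was -0.10. Mcm5 was at 0.30 (SE 0.29), Cdc6 at 0.20 (SE 0.215) and Mcm10 at -0.18 (SE 0.377). In CPM, the groups did not overlap for 5 of the 10 members, of which Mcm3, Mcm4, Mcm6 and Gmnn were lower in knockout and Cdt1 higher, and for 47.4% of all genes. In TPM, Mcm7 was also lower without overlap.

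The change from day 0 to day 7 was compared between the genotypes as an interaction. Mcm10, Mcm5 and Cdc6 rose more in knockout than in wild type, by 3.35, 1.73 and 1.26 on the log2 scale, with SE of 0.663, 0.433 and 0.316. The adjusted p-values of edgeR were 0.0126, 0.0288 and 0.0288. No member was called as rising less, with Mcm4 at -0.26 (SE 0.137) and Mcm6 at -0.13 (SE 0.196). Over all genes 6.08% were called as rising more and 13.5% in either direction. The same day 0 libraries enter the day 0 comparison and this one, so the results are not independent. The count of called members fell from 3 to 0 without day 0 knockout replicate 2. It fell to 1 without day 0 wild-type replicate 1, day 0 knockout replicate 1, day 7 wild-type replicate 1 or day 7 wild-type replicate 2, and to 2 without day 0 wild-type replicate 2 or either day 7 knockout library. With limma on log2 TPM it was 0, at a pseudocount of 1 or of 0.1. On the batch-corrected log2 values it was 3 with other members, since Mcm10 was not called (1.14, limma adjusted p = 0.0516) and Mcm7 was (0.40, limma adjusted p = 0.0459).

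Markers of other cells and of differentiation also differed between day 0 and day 7. The summed level of the differentiating muscle list lay between 90.3 and 174 TPM at day 0 and between 2896 and 4581 TPM at day 7, and 7 of the 7 genes tested were higher in each genotype. Of the macrophage list, 7 of 9 genes were higher in wild type and 6 of 9 in knockout, although its sum, mostly Lyz2, lay between 2036 and 3520 TPM at day 0 and between 371 and 585 TPM at day 7. The macrophage gene C1qa was at 0.123 to 0.297 TPM at day 0 and at 4.25 to 21.8 TPM at day 7. The leukocyte gene Ptprc was at 0 to 0.0422 TPM at day 0 and at 0.241 to 3.48 TPM at day 7. The fibro-adipogenic sum was between 4759 and 6171 TPM at day 0 and between 2854 and 3598 TPM at day 7. The muscle stem cell list summed to 979 and 951 TPM in wild type at day 0 and to 1344 and 1211 TPM at day 7. In knockout it summed to 737 and 715 TPM at day 0 and to 1053 and 1030 TPM at day 7. In wild type the red blood cell sum went from 3121 and 3128 TPM to 793 and 1073 TPM, and the skin epithelium sum from 170 and 179 TPM to 8.72 and 21.0 TPM. In knockout these sums were 782 and 742 TPM at day 0 against 329 and 765 TPM at day 7, and 2.37 and 2.70 TPM against 5.59 and 4.04 TPM. The part of these cells in the rise was not tested.

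The balance among the subunits shifted with the rise. The sum of Mcm2 to Mcm7 went from 79.6 ± 0.70 TPM (SD, n = 2) to 339 ± 15.1 TPM in wild type between day 0 and day 7, and from 70.8 ± 3.07 to 306 ± 14.9 TPM in knockout. The share of Mcm7 in this sum went from 41.9% ± 0.18 to 26.4% ± 0.75 in wild type, and from 34.6% ± 1.27 to 26.9% ± 1.88 in knockout. The share of Mcm4 also went down, from 20.2% ± 0.64 to 13.1% ± 0.28 in wild type and from 25.4% ± 0.70 to 12.8% ± 0.68 in knockout. Mcm6, Mcm3 and Mcm2 took up larger shares at day 7. Mcm6 went from 19.4% ± 0.20 to 29.7% ± 1.48 in wild type and from 22.4% ± 0.61 to 28.8% ± 0.98 in knockout. Mcm3 went from 7.51% ± 0.23 to 15.1% ± 0.36 and from 9.41% ± 1.08 to 15.3% ± 0.49, and Mcm2 from 9.09% ± 0.68 to 13.8% ± 0.64 and from 7.31% ± 0.23 to 13.9% ± 0.60. These are shares of transcripts, and protein was not measured. In the assembled ring each subunit is present once.

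The share of Mcm5 was 2.02% ± 0.57 at day 0 and 1.81% ± 0.16 at day 7 in wild type. In knockout it was 0.87% ± 0.13 and 2.40% ± 0.49, lower than wild type at day 0 and higher at day 7. At day 21, by label, knockout had Mcm5 shares of 0.42% and 0.92%, below the wild-type shares of 1.30% and 1.14%. The shares of all 6 subunits were not tested, and they depend on the transcript lengths that enter TPM. For Mcm7 at day 0 the mean was 33.3 TPM in wild type and 24.4 TPM in knockout. In CPM these means were 48.4 and 41.6. The ratio of Cdt1 to its inhibitor Gmnn in TPM at day 0 was 1.33 ± 0.35 for wild type, against 1.83 ± 0.44 for knockout, with overlapping libraries. At day 7 it was 0.87 ± 0.02 for wild type, against 1.62 ± 0.29 for knockout, and both knockout libraries lay above both wild-type libraries. By label, the day 21 ratios were 2.10 and 0.95 for wild type, against 2.60 and 4.94 for knockout. In CPM the day 0 ratios, at 3.13 and 4.50 for wild type and 4.58 and 8.23 for knockout, adjoined without overlap. The ratios were not tested.

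**Figure D3:**
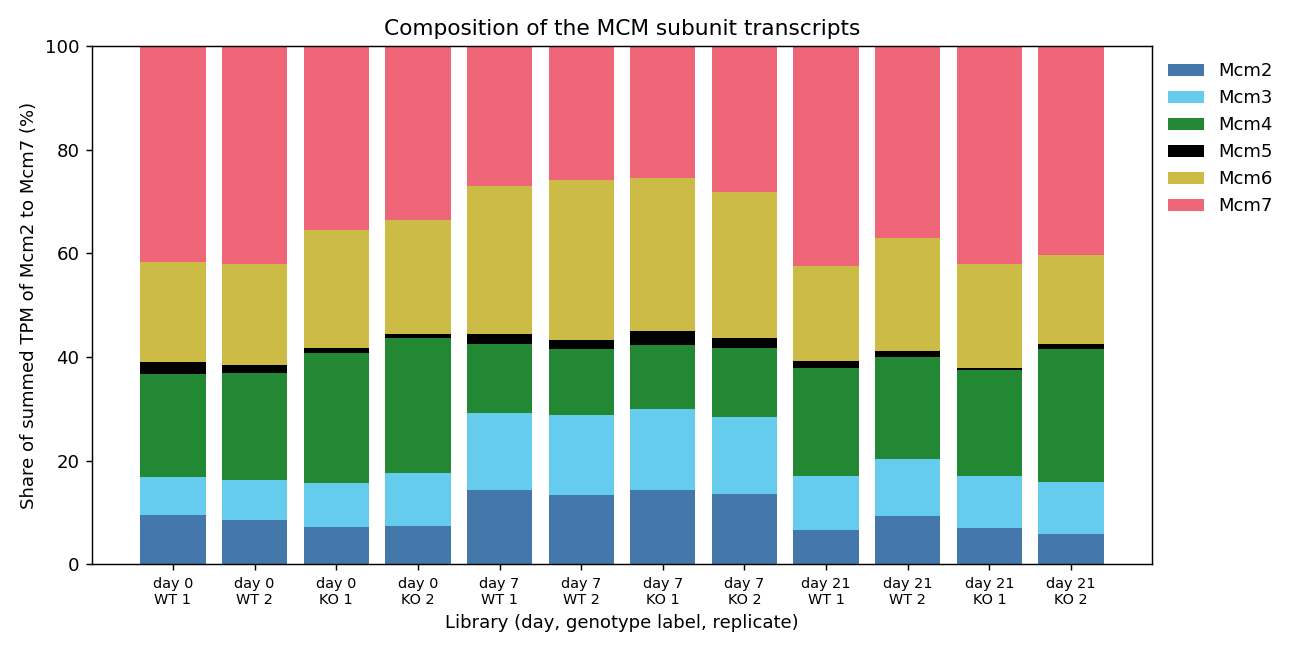
Share of each MCM subunit in the summed TPM of Mcm2 to Mcm7, in percent, as stacked bars for each of the 12 libraries, named by day, genotype label and replicate. Mcm7 holds the largest share at days 0 and 21 and shrinks at day 7 while Mcm6, Mcm3 and Mcm2 widen; Mcm5 is a thin band in every library.

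By day 21 the set had fallen again. All 10 members were lower at day 21 than at day 7 in the libraries labelled wild type, where 19.8% of all genes were called lower and 40.1% in either direction. All 10 were also lower in those labelled knockout, where these shares were 23.6% and 46.5%. The log2 fold changes ran from -2.35 (Mcm10) to -0.87 (Mcm4) in wild type and from -3.41 (Mcm10) to -0.68 (Mcm4) in knockout. Without both libraries whose Sesn2 goes against the label, all 10 were again called lower in each genotype, with 1 day 21 library left in each and the assumption that it varies like the other groups. Cdt1 in wild type lost its call when day 7 wild-type replicate 2 was left out (edgeR adjusted p = 0.109) and when day 21 wild-type replicate 2 was (0.0785), and in a fit of the compared libraries alone (0.0975). Marker sums moved at the same time. The differentiating muscle list was at 2896 to 4581 TPM at day 7 and at 248 to 576 TPM at day 21, with 7 of 7 genes called lower in each genotype. The fibro-adipogenic list went from 2854 to 3598 TPM at day 7 to 4836 to 8393 TPM at day 21, and the muscle stem cell list from 1030 to 1344 TPM to 1453 to 1788 TPM. The macrophage list went from 371 to 585 TPM to 721 to 1022 TPM. Its sum was mostly Lyz2 at days 0 and 7, and the directions of its single genes at day 21 are not given here. The red blood cell list went from 329 to 1073 TPM to 1328 to 3552 TPM, and the skin epithelium list from 4.04 to 21.0 TPM to 29.0 to 106 TPM. At day 0 the muscle stem cell list was at 715 to 979 TPM and the macrophage list at 2036 to 3520 TPM, without overlap with day 21 for either. The part of these cells in the day 21 results was not tested.

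The return was not to the level before injury for every member. Mcm3 was at 10.6 and 13.4 TPM in the libraries labelled wild type and at 11.1 and 10.1 TPM in those labelled knockout, above every day 0 library. Its log2 fold change over day 0 was 0.89 (edgeR adjusted p = 0.000356) in wild type and 0.65 (0.00225) in knockout, and it was called in both genotypes with and without the contradicted libraries. Mcm4, at 21.3 and 23.7 TPM and at 22.2 and 25.8 TPM, was higher by 0.37 (0.0142) and 0.31 (0.0351). Mcm7, at 43.4 and 44.8 TPM and at 45.8 and 40.5 TPM, was higher by 0.36 (0.0201) and 0.51 (0.00478). Without the contradicted libraries, Mcm4 in knockout had an edgeR adjusted p of 0.103 and Mcm7 in wild type of 0.054.

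Mcm2 and Mcm6 were not called against day 0 as labelled. In the fit without the contradicted libraries both were called higher in each genotype, by 0.44 and 0.51 for Mcm2 and by 0.48 and 0.40 for Mcm6. That fit called 5 of 10 members in each genotype, with 32.9% of all genes called in wild type and 31.2% in knockout. As labelled, Mcm2 was at 6.75 and 11.1 TPM in wild type and 7.61 and 5.85 TPM in knockout, and Mcm6 at 18.8 and 26.2 TPM and at 21.8 and 17.2 TPM. Cdc6 was lower than at day 0 in wild type, at 2.87 and 1.74 TPM, with a log2 fold change of -0.75 (edgeR adjusted p = 0.0269), and at -0.83 (0.026) without the contradicted libraries. At 2.45 and 1.60 TPM it was not called in knockout. Mcm10 was higher than at day 0 in knockout, at 0.863 and 0.324 TPM, by 2.51 (0.00758), and by 2.87 (0.00313) without the contradicted libraries, again against 9 counts. In all, 4 of 10 members were called in wild type, where 35.9% of all genes were, and 4 of 10 in knockout, where 31% were.

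These calls against day 0 also moved with single libraries. The count in wild type fell to 1 without day 0 wild-type replicate 1 and to 1 without replicate 2, and the count in knockout fell to 2 without day 0 knockout replicate 1 and to 2 without replicate 2. Cdc6 in wild type and Mcm4 in knockout each lost their call without any 1 of the 4 libraries compared, with edgeR adjusted p between 0.0625 and 0.129 for Cdc6 and between 0.0505 and 0.239 for Mcm4. Mcm4 in knockout also lost it without either day 0 wild-type library (0.0596 in each fit). Mcm7 in wild type lost it without day 0 replicate 1 (0.113), day 0 replicate 2 (0.0789) or day 21 replicate 1 (0.0974), and in knockout without day 0 replicate 1 (0.0509). Mcm4 in wild type lost it without day 0 replicate 1 (0.09) or 2 (0.0538), and Mcm10 in knockout without day 0 replicate 2 (0.0615). On log2(TPM + 1), Mcm10 in knockout was at 0.56 with a limma adjusted p of 0.115. Mcm5, Cdt1 and Gmnn were not called in either genotype against day 0, with or without the contradicted libraries, although Cdt1 was called higher in wild type without day 21 replicate 2 (0.72, edgeR adjusted p = 0.0426). Mcm5 was at 1.33 and 1.38 TPM in the libraries labelled wild type and at 0.462 and 0.924 TPM in those labelled knockout. Cdt1 was at 9.76 and 5.06 TPM and at 8.04 and 9.82 TPM, and Gmnn at 4.64 and 5.33 TPM and at 3.09 and 1.99 TPM.

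When the day 21 libraries were compared by their genotype labels, none of the 10 members was called by edgeR, nor any of the 9 for which DESeq2 gave an adjusted p, which did not include Gmnn. Over all genes 0.0126% were called by edgeR. An unadjusted p under 0.05 was found for 4 members, Mcm3, Mcm5, Gmnn and Mcm10, each lower in the libraries labelled knockout. The same threshold was passed by 14.2% of all genes, and by 7.41% with a lower value in knockout. Mcm5 had a log2 fold change of -1.02 (SE 0.323, edgeR adjusted p = 0.222) and Mcm10 of -1.24 (SE 0.429, 0.251). Without the contradicted libraries none was called either, and these values were -1.48 (0.0716) and -1.27 (0.146).

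Around the members, other parts of the replication machinery were followed in 8 lists of 94 genes. The origin recognition complex is the platform on which the helicase is loaded. Of its 6 genes, Orc6 was lower in knockout at day 0 (log2 fold change -1.02, edgeR adjusted p = 0.00137) and Orc1 higher (0.98, 0.0271), while Orc3 was at 0.16 (0.364). Orc1 was at 6.65 and 6.01 TPM in wild type and at 13.3 and 15.8 TPM in knockout. At day 7 Orc1 was at 4.10 and 6.71 TPM in wild type and at 10.1 and 11.3 TPM in knockout, and it was not called against day 0 in either. Of the 6 genes 3 rose from day 0 to day 7 in wild type and 3 in knockout, in knockout Orc6 by 1.08, Orc3 by 0.49 and Orc2 by 0.44.

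The factors that turn the loaded ring into an active helicase rose in 11 of 13 cases in wild type and in 10 of 13 in knockout, and none fell. In knockout Gins2, a subunit of the active helicase, rose by 2.55, its partner Cdc45 by 2.47 and the kinase activator Dbf4 by 1.67 on the log2 scale. At day 0, Cdc45 was lower in knockout (-1.36, edgeR adjusted p = 0.00212) and Wdhd1 was higher (0.88, 0.0447). Ticrr, a firing factor, had no counts in wild type at day 0 and 0.207 ± 0.137 CPM in knockout (edgeR adjusted p = 0.0205), so no fold is given. In all, 2 of these 13 were called higher and 1 lower.

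Of 25 genes of the elongating replisome, 20 rose in wild type and 18 in knockout, and none fell. In knockout the clamp loader subunit Rfc3 rose by 2.46, the DNA ligase Lig1 by 2.31 and the chromatin assembly subunit Chaf1b by 2.23. The sliding clamp Pcna did not follow, at -0.23 (edgeR adjusted p = 0.125) in wild type and -0.01 (0.961) in knockout; it was chosen after its values were seen. At day 0, Rpa1, a subunit of the single-strand binding protein, was higher in knockout by 0.41 (0.00599) and the polymerase subunit Pold1 by 0.74 (0.0102), and the checkpoint mediator Clspn was lower (-1.57, 0.0175). Over this list 2 were called higher and 3 lower.

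Genes that make deoxynucleotides were among those lower in knockout at day 0. Of 7 such genes 4 were lower and none higher, including the ribonucleotide reductase subunit Rrm2 (-1.69, edgeR adjusted p = 0.000261) and the thymidine kinase Tk1 (-1.80, 0.000296). The thymidylate synthase gene Tyms had a mean of 13.6 ± 0.116 CPM in the wild-type libraries, against 6.81 ± 1.51 CPM in those of the knockout (edgeR adjusted p = 0.00221). From day 0 to day 7 Rrm2, Tk1 and Tyms rose in knockout by 4.29, 4.16 and 2.51, and 6 of 7 rose in each genotype.

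Of 13 E2F and pocket protein genes, 10 rose and 1 fell in wild type, and 8 rose and 2 fell in knockout. The repressor E2f8 rose by 5.20 in knockout, the activator E2f1 by 2.96 and E2f4 by 1.04. At day 0, 4 were higher and 2 lower in knockout; the pocket protein Rb1 was higher by 0.80 (edgeR adjusted p = 0.0138), and E2f6 (-1.07, 0.00648) and E2f4 (-0.44, 0.0168) were lower.

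Among 9 genes that degrade Cdt1, Cdc6 or geminin, or restrain that degradation, 9 rose in wild type and 8 in knockout. Dtl, the adaptor that brings Cdt1 to its ubiquitin ligase, rose by 2.75 in knockout, the mitotic activator Cdc20 by 2.88 and the inhibitor Fbxo5 by 3.55. At day 0 the ligase subunits Cul4a and Ddb1 were higher in knockout, by 0.70 (edgeR adjusted p = 0.000932) and 0.49 (0.00959), and Dtl was lower (-0.90, 0.00321). Over the list 4 were higher and 4 lower.

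The other genes with MCM names are not part of the loaded ring. Mcm3ap, a gene of messenger RNA export, was higher in knockout at day 0 by 1.23 (edgeR adjusted p = 0.00263), the single call among 5 genes, while Mcmdc2 was at -1.26 (0.0901) and Mcm8 at 0.63 (0.119). Of the 5, 2 rose from day 0 to day 7 in wild type and none was called in knockout, where Mcm3ap was at -0.46 (0.0915), Mcmbp at 0.18 (0.243) and Mcm8 at 0.26 (0.48); of these 5 genes, 1 had an unadjusted p under 0.05 in knockout.

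The mitotic genes had the largest median change of the 8 lists in each of the 3 comparisons given here. All 16 rose from day 0 to day 7 in each genotype, with median log2 fold changes of 3.10 in wild type and 5.01 in knockout. In knockout the kinetochore motor Cenpe rose by 4.12, the kinase Plk1 by 4.98 and the cyclin Ccnb2 by 4.86. At day 0, 12 of 16 were lower in knockout and none was higher, with a median of -1.58, including Cenpe (-1.35, edgeR adjusted p = 0.00137), Ccnb2 (-2.07, 0.00263) and Ccnb1 (-2.44, 0.00318).

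**Figure D4:**
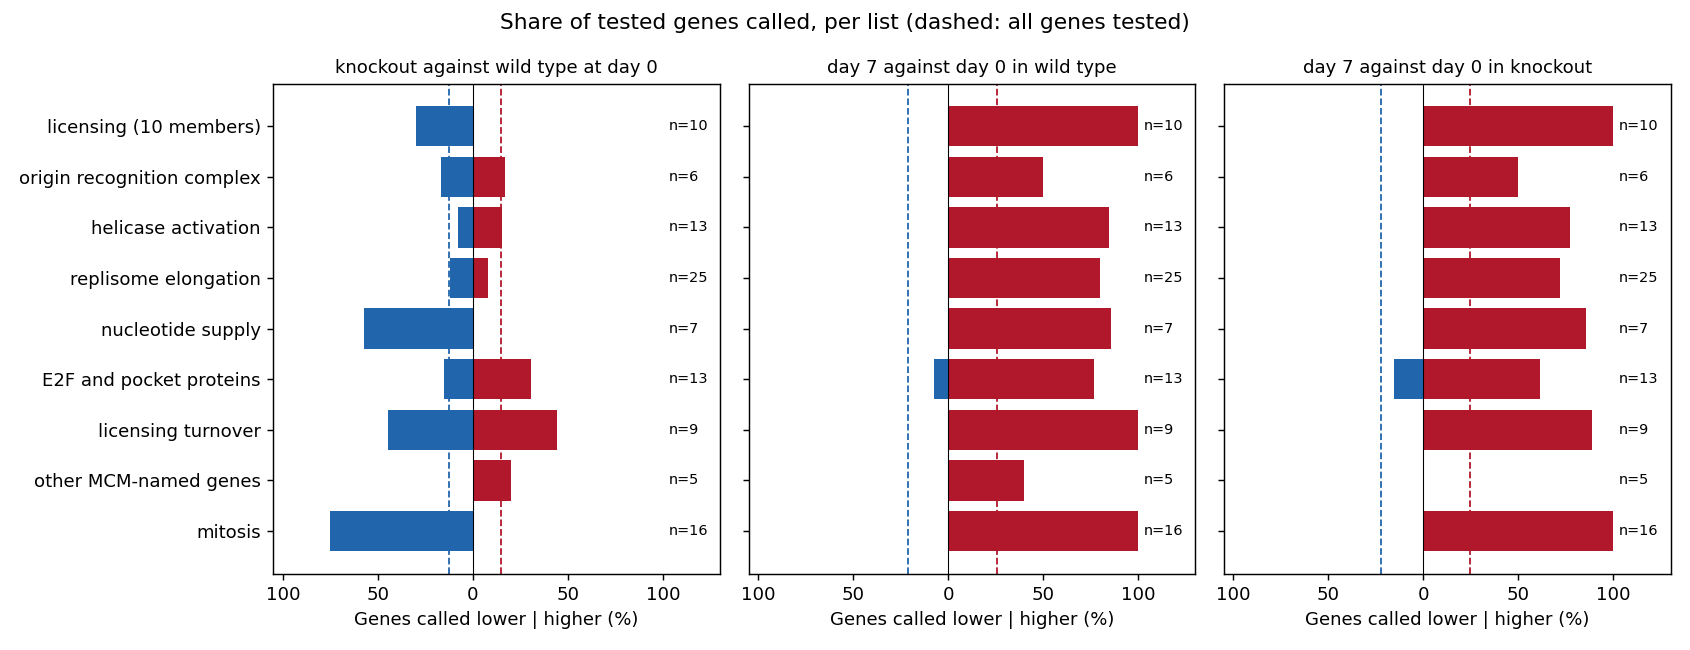
Share of genes called lower (left of 0) and higher (right of 0) by edgeR at an adjusted p under 0.05, in percent of the genes tested (n), in the licensing set and in 8 lists of related genes; dashed lines are the shares over all genes. In the licensing set 3 of 10 are called lower in knockout at day 0 and all 10 are called higher at day 7; the mitosis list has 12 of 16 called lower at day 0.

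The members resembled each other to different degrees. The 4 day 7 libraries were the highest for every member in CPM, so the 12 libraries form 2 clusters and no correlation over all of them is given. Over the 8 libraries of days 0 and 21, a choice made after seeing the data, Pearson r of log2 CPM was above 0 for 30 of the 45 pairs of members, and for 27 without both contradicted libraries, which leaves 6. Over the 8 it ran from -0.66 (Mcm4 with Gmnn) to 0.91 (Mcm3 with Mcm7). Against the mean standardised profile of Mcm2 to Mcm7, which holds the subunits themselves, r over the 8 was 0.94 for Mcm3, 0.91 for Mcm7 and 0.85 for Mcm6, and it was lowest among the subunits for Mcm5, at 0.28 over the 8 and 0.17 over the 6. Mcm10 was at 0.75 and 0.74. With this profile Cdc6 had an r of 0.092 over the 8 and 0.10 over the 6, Cdt1 of 0.055 and -0.26, and Gmnn of -0.015 and -0.32. Single subunits differed from the mean profile. Cdc6 and Gmnn had r of 0.66 and 0.61 with Mcm5 over the 8 libraries, and 0.75 and 0.80 over the 6. With Mcm4 they had r of -0.59 and -0.66 over the 8, and -0.47 and -0.86 over the 6. These libraries come from 2 days and 2 genotypes, whose differences enter each r.

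The other members lie on chromosome 6 (Mcm2, 88883474 to 88898780, minus strand), chromosome 1 (Mcm3, 20802968 to 20820312, and Mcm6, 128331590 to 128359664, both minus strand), chromosome 16 (Mcm4, 15623897 to 15637400, minus strand) and chromosome 8 (Mcm5, 75109569 to 75128439, plus strand) of GRCm38. Some members share sequence with other genes, and their counts are uncertain to that extent. Cdt1 (chromosome 8, 122568015 to 122573554, plus strand of GRCm38) lies over its whole length of 5540 bases inside the annotated gene Gm20388 on the same strand, which had 474 to 2015 counts per library against 251 to 1210 for Cdt1. Mcm7 (chromosome 5, 138164583 to 138172422, minus strand) overlaps Ap4m1 by 421 bases and Cops6 by 64 bases on the other strand, and holds the microRNA genes Mir25, Mir93 and Mir106b. A near copy of Mcm7, Gm5487, matches 72.8% of its longest transcript at 97.7% identity. Shorter near copies exist of Mcm4 (Gm9577, 51.9% of the length), Gmnn (Gm6510, 43.6%) and Cdc6 (Gm9430, 26.2%), and those of Mcm4 and Cdc6 had at most 1 count in a library.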

How the data were processed

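Estimated counts per gene and TPM were deposited for the 12 libraries, with another deposited table of batch-corrected regularised log2 values whose batch is not named. The submitters' processing notes name kallisto 0.46.1 and the builds mm10 and GRCm38.p6; reads were single-end, 76 bases, from SMART-Seq cDNA, per the labels' protocols. Counts were rounded to whole numbers and filtered with filterByExpr of edgeR 4.0.16, which kept 15890 genes and all 10 members. The 6 group means were fitted on the 12 libraries together (TMM scaling, robust quasi-likelihood), with Benjamini-Hochberg adjustment over the 15890 genes and a threshold of 0.05. The SE is the log2 fold change over the square root of F. Alternatives used DESeq2 1.42.0, limma 3.58.1 on TPM (pseudocounts 1 and 0.1) or the log2 table, other scalings, filters and samples. Copies were sought with BLAST 2.17.0. Analyses ran in R 4.3.3 and Python 3.11.15 (matplotlib 3.10.9), and the tests were tested on simulated data. Members and gene lists were chosen with earlier results of these data known. All members are named, and of each list the 3 genes with the smallest p in knockout against wild type at day 0 and the 3 in day 7 against day 0 in knockout. Promoter sequences are from RefSeq (GRCm38.p6), and gene positions from GENCODE M21. A planned ranking of other genes by their correlation with Mcm2 to Mcm7 over the 12 libraries is not reported, since these form 2 clusters.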

Additional observations from a re-analysis of the deposited data

Results flagged for a closer look

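The change from day 0 to day 7 differed between the genotypes for 3 of the 10 licensing genes by the interaction test of edgeR, where 13.5% of all genes were called and 6.08% in this direction. The count was 0 without day 0 knockout replicate 2 and 0 with limma on log2 TPM. The knockout change minus the wild-type change was 3.35 for Mcm10, 1.73 for Mcm5 and 1.26 for Cdc6 on the log2 scale. At day 7 the 3 genes lay between -0.18 and 0.30 in knockout against wild type on this scale, and at day 0 between -3.53 and -1.06.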

How the results depend on the processing

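The number of members called at day 0 (3) was 5 in a fit of the compared libraries alone or of days 0 and 7 alone, where 49.5% and 38.9% of all genes were called, 4 with DESeq2 and 1 with limma on log2(TPM + 1) with no filter (Mcm7 alone); on log2(TPM + 1) with the filter the 2 called were Mcm7 and Cdc6; leaving out single libraries gave 1 to 4. The interaction count (3) was 0 with limma on log2(TPM + 1), on log2(TPM + 0.1) and on log2(TPM + 1) with no filter, and 0 to 3 without single libraries. Day 21 against day 0 gave 2 in wild type with the compared libraries alone, against 4 in the fit of all libraries and 3 to 5 in the other fits of all libraries, where log2(TPM + 1) and log2(TPM + 0.1) with the filter had Mcm6 in place of Cdc6. In knockout Mcm10 lost its call on log2(TPM + 1) with and without the filter (limma adjusted p = 0.115 and 0.164), and Mcm4 with no filter on low counts (edgeR adjusted p = 0.0592) and with the compared libraries alone (0.0824). The count was 1 to 5 in wild type and 2 to 4 in knockout without single libraries. Without both contradicted day 21 libraries, a fit chosen after seeing the data, the counts were 4 at day 0, where 36.7% of all genes were called, and 5 in each genotype for day 21 against day 0, where 32.9% were in wild type and 31.2% in knockout. Depth limits the fold of Mcm10 at day 0, which rests on 7 and 2 counts in knockout. The replicate numbers did not pair the libraries (0 of 15 group pairs had a correlation over 0.1), and the replicate block gave the same counts, 3 at day 0, 0 at day 7, 10 in each genotype for day 7 against day 0, 4 for day 21 against day 0 and 3 in the interaction. A filter of at least 10 counts per library removed Mcm10. Where a count of called members stands here or above without the share of all genes in the same fit, its background is not given. Such a count cannot be told from a general gain or loss of calls in that fit.

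The members below changed sign in at least 1 fit. None was called in the fit of all libraries or with the changed sign, and for day 21 against day 0, Cdt1 and Mcm2 in wild type and Mcm6 in knockout were called higher in other fits. At day 0, log2(TPM + 1) gave 0.13 for Mcm3 and 0.041 for Mcm6, with and without the filter, log2(TPM + 0.1) gave 0.15 and 0.043, and the batch-corrected values gave 0.062 for Mcm3; without single libraries Mcm6 lay between -0.032 and 0.027 and Cdt1 between -0.11 and 0.35. At day 7 the batch-corrected values gave 0.0057 for Mcm10, and without single libraries Mcm10 lay between -0.50 and 0.078, Mcm2 between -0.20 and 0.012 and Mcm7 between -0.15 and 0.018. At day 21 without both contradicted libraries Mcm7 was at 0.10 and Cdc6 at 0.14; without single libraries Mcm7 lay between -0.18 and 0.0086, Cdt1 between -0.24 and 0.84, Mcm4 between -0.0043 and 0.092, Mcm6 between -0.43 and 0.020 and Cdc6 between -0.59 and 0.049. For day 21 against day 0 in wild type, Gmnn was at 0.15 on log2(TPM + 1) with and without the filter, 0.18 on log2(TPM + 0.1) and 0.033 on the batch-corrected values, and Cdt1 at -0.37 without both contradicted libraries; without single libraries Gmnn lay between -0.66 and 0.062, Cdt1 between -0.37 and 0.72, Mcm2 between -0.14 and 0.43 and Mcm10 between -0.33 and 0.61. In knockout, Cdc6 was at -0.11 on the batch-corrected values and Mcm5 at -0.46 without both contradicted libraries; without single libraries Cdc6 lay between -0.27 and 0.37, Mcm5 between -0.46 and 0.41 and Mcm6 between -0.052 and 0.40. In the interaction Gmnn was at -0.20 on log2(TPM + 1) with and without the filter, -0.17 on log2(TPM + 0.1) and -0.091 on the batch-corrected values, and Mcm3 lay between -0.12 and 0.029 without single libraries. The cause of these shifts was not tested.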

Other observations

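The ratio of estimated counts to TPM of a gene reflects the lengths of the transcripts its reads were assigned to. Its range over the 12 libraries, on the log2 scale, was 0.80 for Gmnn, 0.69 for Cdc6, 0.36 for Mcm7 and 0.32 for Mcm3, and 0.04 for Mcm2, Mcm4, Mcm5 and Cdt1.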
